A study of Saccharomyces cerevisiae with 96 samples.

Results

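The RNAs described here are those detected by 75 probe sets of the Affymetrix YG-S98 yeast array that have no gene in the array's annotation and that gave a higher signal in cells without nonsense-mediated mRNA decay (Nmd-) than in cells with it (Nmd+). They were chosen from 2442 such probe sets, among 9275 in all after the array's own controls, as those whose mean log2 value over the harvests from 2 to 60 min was at least 1 higher in Nmd- than in Nmd+ arrays. The probe set of the KanMX4 cassette was not counted among them. Each value is a log2 signal of 1 probe set on 1 array, so that a difference of 1 is a doubling.

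The arrays came from 2 congenic Saccharomyces cerevisiae strains that both carry SUC2, CUP1, mal, mel, gal2, flo1 and flo8-1. S288C (labelled wt) is Nmd+, and YRZ1 (labelled mut) is Nmd-, with UPF1 replaced by the KanMX4 cassette (upf1Δ::KanMX4), so that each genotype is 1 strain. Both were grown to mid-log phase, treated with 10 μg/ml of thiolutin, an inhibitor of transcription, and harvested at 16 times from 0 to 60 min in 3 courses per strain, which gave 96 arrays. The notes of the 6 arrays of 4 min give 14 μg/ml.

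NMD removes mRNAs on which translation stops too early, and in yeast it needs Upf1, Upf2 and Upf3. Its natural targets include mRNAs with upstream reading frames and transcripts with little or no coding capacity, which ribosomes leave soon after they start. Long terminal repeats (LTRs) are the ends of the yeast Ty retrotransposons and remain in the genome as single copies after an element is lost. Delta repeats belong to Ty1 and Ty2, sigma to Ty3 and tau to Ty4.

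UPF1, deleted in YRZ1, and the KanMX4 cassette were used as markers of the strain. Outside 6 arrays, UPF1 was at most 3.81 in every Nmd- array and at least 5.42 in every Nmd+ array, and KanMX4 was at least 11.65 in Nmd- and at most 6.26 in Nmd+. The 6 arrays, which the choice of members left out, were those labelled Nmd- course 1 at 10, 40, 45 and 50 min and Nmd+ course 1 at 20 min and course 3 at 60 min. This left 41 Nmd- and 43 Nmd+ arrays from 2 to 60 min and all 6 arrays of 0 min. A further set of arrays stood apart in time. The Nmd- arrays of 6 and 10 min had mean correlations of -0.31 to 0.17 with the 4, 8 and 12 min arrays of their own course and of 0.32 to 0.73 with its arrays of 40 to 60 min, over the probe sets outside the members, whereas the Nmd+ arrays of 6 and 10 min had 0.54 to 0.70 and -0.16 to 0.33. Scans fell into 3 periods. Course 1 was scanned mostly in the first, and courses 2 and 3 mostly in the second.

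The names come from the study's supplementary list of NMD-sensitive probe sets, which was chosen on arrays of the same 2 strains. Which arrays those were is not given in the sources used here. It calls 41 members non-annotated, gives a reading frame name to 12 and an LTR name to 6, lists 5 without a usable name and does not list the other 11. Of the 11 different reading frame names, 6 are in the RefSeq table of assembly R64, and YGR169C-A, read by 4682_at, has the gene name LSO2 there. No full-length Ty element is among the names. Probe sets whose suffix marks shared or incomplete probes (_i_at, _f_at, _s_at or _g_at) make up 22 of the 75 members, so a signal can come from more than 1 locus.

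The values that chose the members ranged widely. Over 2 to 60 min the mean of a member was between 3.51 and 10.27 in Nmd- and between 2.40 and 9.0 in Nmd+, and the differences ran from 1.01 to 3.19 with a median of 1.30. The largest was that of 5515_at, whose Nmd- arrays had a lowest, median and highest value of 5.63, 8.28 and 9.14 and whose Nmd+ arrays had 4.14, 4.72 and 6.22. This is a 9.15-fold difference of the means. Next came 5512_at (2.51), 9285_at, read as YMR320W (2.49), 5454_at (2.31), 10437_at (2.28), 3214_at (2.25), 10433_at (2.17), 7505_at (2.10), 8112_at (2.05) and 8044_at (2.04). Just inside the limit were 5883_i_at (1.05), 9986_at (1.04), 3683_f_at (1.02), 3374_at (1.02) and 4682_at (1.01), and just outside it were 3573_f_at (0.99), 5862_at (0.99), 10196_g_at (0.97), 4945_at (0.96) and 3152_at (0.94). For 72 members the 3 Nmd- course means all lay above the 3 Nmd+ course means, and for 24 of them every Nmd- array from 2 to 60 min lay above every Nmd+ array. These are the arrays that chose the members, so the rule favoured such separation. The counts are a description only, with no share over all probe sets beside them. The same limit was passed by 230 annotated probe sets, with a median of 1.29 and a highest difference of 2.86.

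The 0 min arrays, which the choice did not use, show the RNAs before transcription was blocked, although they came from the same cultures as the later harvests. All 75 members had a higher mean in Nmd- at 0 min, with differences from 0.32 to 2.70 and a median of 1.48, against a median of -0.05 over all 9275 probe sets. By limma (at least 1.5-fold, adjusted p under 0.05) 53 of the 75 were higher in Nmd- and none was lower. Of all probe sets tested, 4.28% were called higher and 0.701% lower. The call was made for 177 of the 230 annotated probe sets of the same strain difference and for 38 of the 2367 other probe sets without a gene. Every Nmd- array lay above every Nmd+ array for 65 members, while 13.8% of all probe sets did so.

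**Figure D1:**
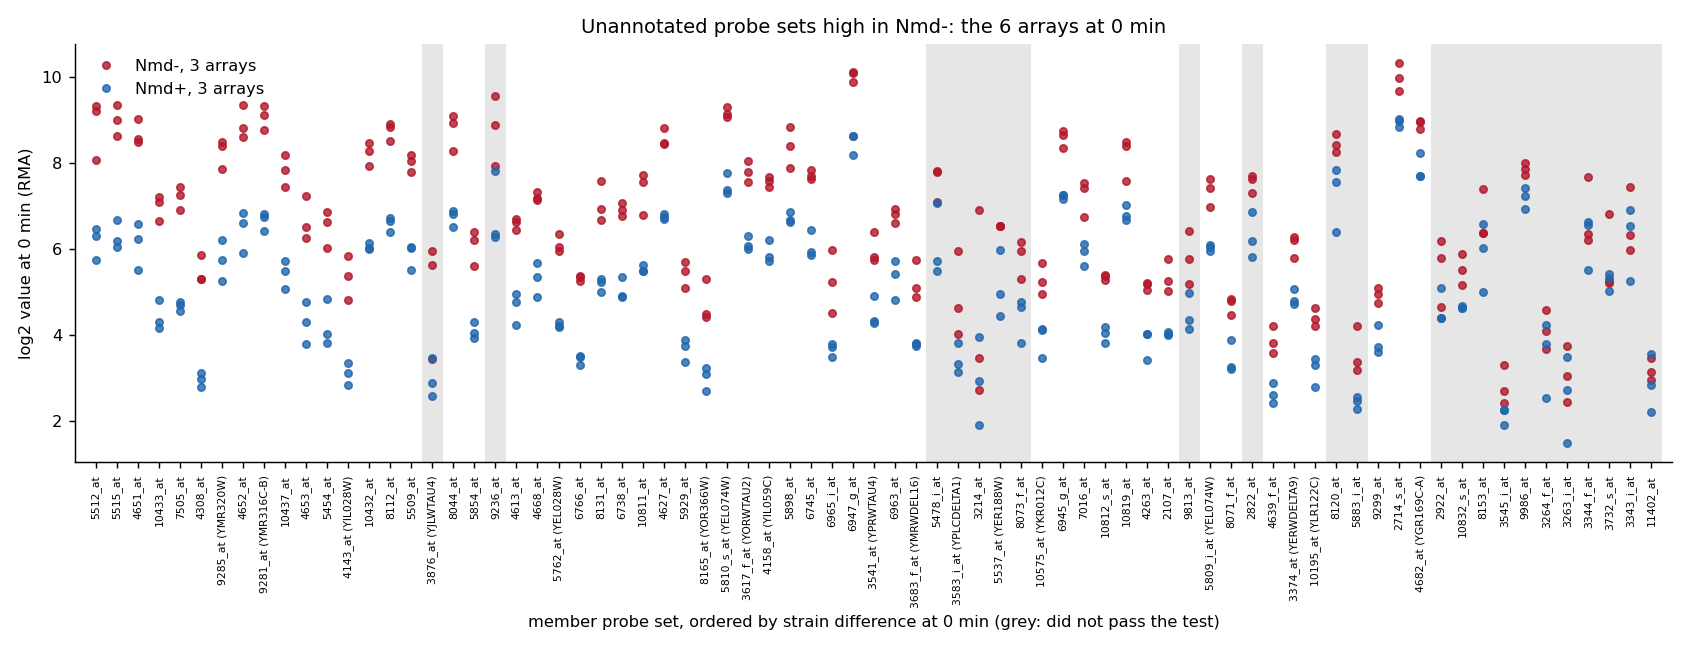
Log2 values of the 75 members (horizontal axis, ordered by the strain difference) on the 3 Nmd- arrays (red) and 3 Nmd+ arrays (blue) of 0 min; grey bands mark the 22 members that did not pass the test. The groups are apart for 65 members, and the overlapping ones lie mostly at the right, where the differences are smallest.

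The probe set of UPF1 still gave up to 3.81 in Nmd-, where the gene is deleted. At 0 min 18 members had an Nmd+ mean at or under that value, 10 of them called higher in Nmd-, and 4 had an Nmd- mean at or under it as well. Probe sets differ in their background and no detection call was used, so whether these low signals were above background is not known and the changes of these members may be lower bounds.

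The largest changes at 0 min were those of 5512_at and 5515_at, both called non-annotated. The 3 Nmd- arrays gave 8.07, 9.22 and 9.32 for 5512_at and the 3 Nmd+ arrays 6.30, 5.73 and 6.48, a change of 2.70 (SE 0.37, adjusted p = 0.0062). For 5515_at they gave 8.63, 9.36 and 8.99 against 6.05, 6.18 and 6.68, a change of 2.69 (SE 0.26, adjusted p = 0.0018), or 6.44-fold. The groups did not overlap for either probe set. The probe set 5509_at, numbered near them, had 8.19, 7.79 and 8.05 against 5.51, 6.01 and 6.04.

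The neighbours 4651_at, 4652_at and 4653_at changed by 2.57, 2.47 and 2.38 (adjusted p = 0.0036, 0.0040 and 0.0070). The values of 4652_at were 9.34, 8.60 and 8.82 in Nmd- and 6.61, 6.85 and 5.9 in Nmd+. These 3 non-annotated probe sets also moved together from array to array, as described below, and are not separate measurements if they read the same RNA. The pair 10432_at and 10433_at changed by 2.17 and 2.55 (adjusted p = 0.0018 for each), and 10437_at changed by 2.39 (adjusted p = 0.0029). Further large changes were those of 7505_at, with 7.25, 6.91 and 7.45 against 4.70, 4.57 and 4.77 (2.52, adjusted p = 0.0015), and of 4308_at, with 5.85, 5.30 and 5.29 against 2.80, 3.10 and 2.98 (2.52, adjusted p = 0.0016), whose Nmd+ values are among those low signals. Among the members with a large mean difference later, 5454_at had 6.86, 6.03 and 6.63 against 3.82, 4.85 and 4.03, and 8112_at and 8044_at changed by 2.16 and 2.03. All of these passed the test.

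Probe sets with a reading frame name changed in the same direction, and 11 of 12 passed, where 4.28% of all probe sets were called higher. The names come from the study's list, which was itself chosen by a comparison of the strains, so this share is not independent. The largest change was that of 9285_at (YMR320W), with 7.86, 8.49 and 8.40 in Nmd- and 5.74, 6.21 and 5.25 in Nmd+ (2.52, adjusted p = 0.0035). It was followed by 9281_at (YMR316C-B), with 9.32, 8.77 and 9.11 against 6.74, 6.82 and 6.42 (2.41, adjusted p = 0.0017). Both probe sets for YEL074W passed, with changes of 1.70 for 5810_s_at and 1.30 for 5809_i_at. The smallest change among the named frames was that of LSO2, which codes for a small ribosome-bound protein: its values were 8.99, 8.79 and 8.94 against 7.69, 8.24 and 7.69 (1.04, SE 0.21, adjusted p = 0.034). This call was lost when any 1 array except Nmd+ replicate 2 was left out, while the change stayed between 0.94 and 1.22. The exception was 5537_at (YER188W), with 6.53, 6.54 and 6.53 against 4.44, 5.98 and 4.94, where the groups did not overlap but the change of 1.41 did not pass (adjusted p = 0.075).

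Of the 6 members with LTR names, 4 passed at 0 min, where 4.28% of all probe sets were called higher. These names come from the same list. The tau repeat YORWTAU2, read by 3617_f_at, had 7.55, 7.80 and 8.06 in Nmd- and 5.99, 6.31 and 6.06 in Nmd+ (1.68, adjusted p = 0.0040), and its groups were well apart. The tau repeat YPRWTAU4 (3541_at) had 5.74, 5.81 and 6.40 against 4.32, 4.91 and 4.27 (1.48, adjusted p = 0.020). The delta repeat YMRWDEL16 (3683_f_at) had 4.88, 5.09 and 5.75 against 3.74, 3.80 and 3.78 (1.47, adjusted p = 0.016). The delta repeat YERWDELTA9 (3374_at) had 5.79, 6.27 and 6.21 against 4.79, 5.06 and 4.72 (1.23, adjusted p = 0.017). The calls of the last 3 did not withstand the loss of an array: that of 3541_at was lost without Nmd- replicate 3 (1.27), Nmd+ replicate 1 (1.39) or Nmd+ replicate 3 (1.37), that of 3683_f_at without Nmd+ replicate 1 (1.45) or replicate 2 (1.48), and that of 3374_at without Nmd- replicate 2 (1.14), Nmd- replicate 3 (1.17) or Nmd+ replicate 1 (1.20). The other 2 LTRs varied more among the Nmd- arrays. YJLWTAU4 (3876_at) had 5.63, 5.95 and 3.44 against 2.88, 2.59 and 3.45 (2.03, SE 0.61, adjusted p = 0.12), with 1 Nmd- array inside the Nmd+ range. Without that array, Nmd- replicate 3, the change was 2.82 and passed the test. This was the only call gained among the single results tried. It came from removing the array that overlapped, so the result stays as not passed. YPLCDELTA1 (3583_i_at) had 4.63, 5.96 and 4.01 against 3.32, 3.13 and 3.80 (1.45, adjusted p = 0.14).

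None of the 11 members absent from the supplementary list passed at 0 min. That list was itself chosen by a comparison of the strains, possibly on these arrays, and is not taken as independent. The 5 smallest changes were all among them. For 11402_at the Nmd- arrays gave 3.14, 3.47 and 2.95 and the Nmd+ arrays 3.56, 2.83 and 2.21. For 3343_i_at they gave 6.32, 7.45 and 5.97 against 6.54, 6.91 and 5.25. In both cases the groups overlapped. The changes of 3343_i_at (0.35), 3732_s_at (0.49), 3344_f_at (0.51), 3263_i_at (0.51) and 11402_at (0.32) had standard errors of 0.34 to 0.52 and adjusted p of 0.58 to 0.77. Of the 22 members that did not pass, 12 had groups that did not overlap.

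Within the second scan period, with 2 Nmd- arrays and 1 Nmd+ array of 0 min, all 75 members were higher in Nmd-, by a median of 1.66. Within the last, with 1 array of each strain, 69 were, by a median of 1.54. The medians over all probe sets were -0.07 and -0.02. Nmd+ replicate 1 of 0 min was scanned in the first period and enters neither comparison. These few arrays give a description only. With the scan period as a block 38 members passed, where 253 of all 9275 probe sets were called higher. With the chip lot as a block 39 members did, where 226 of all were.

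The values from 2 to 60 min are those that chose the members, so the gap between the strains in them was set by the rule, and the levels are given as a description. The median over the 75 members was 6.58 at 2 min, 6.84 at 12 min, 6.50 at 30 min and 6.41 at 60 min in Nmd-, and 4.98, 5.05, 4.99 and 5.05 in Nmd+. The median difference was 1.70 at 12 min and 1.07 at 45 and 50 min. The array medians over the members lay between 6.07 and 6.93 on the 44 Nmd- arrays and between 4.66 and 5.22 on the 46 Nmd+ arrays, and all but the 6 arrays of 0 min among these were used by the rule. Since all arrays were set to the same overall distribution, a level over time is relative to the average RNA on the array and not an amount per cell.

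**Figure D2:**
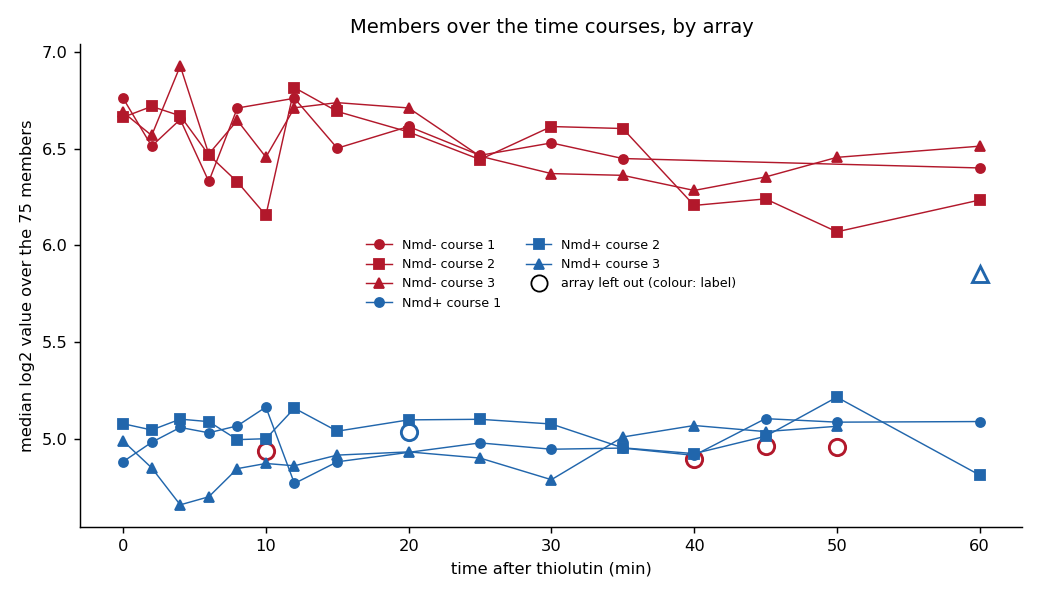
Median log2 value over the 75 members on each array against time after thiolutin, with 1 line per course (red, Nmd-; blue, Nmd+). Hollow marks are the 6 arrays left out, in the colour of their label: the 4 labelled Nmd- lie at 4.90 to 4.96, among the Nmd+ courses, and the one labelled Nmd+ at 60 min lies at 5.85, between the strains.

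The change over time was summarized as a least-squares slope per course, in log2 units per 60 min, over the harvests of 2 to 60 min. The median slope of the members was -0.30 in Nmd- and 0.27 in Nmd+, against -0.01 and 0.03 over all probe sets. In Nmd-, 12 members fell and 6 rose by limma (adjusted p under 0.05), where 11.5% of all probe sets fell and 10.8% rose. In Nmd+, 2 members fell and 10 rose, where 15.3% fell and 16.7% rose. Against all probe sets, the members' share in Nmd+ is thus low for falling, and their other shares are near the background. The members' shares were 16% falling and 8% rising in Nmd-, and 2.67% and 13.3% in Nmd+. Of the 2367 other probe sets without a gene, 3.04% fell and 6.42% rose in Nmd-, and 4.18% and 10.6% in Nmd+. For the 230 annotated probe sets of the same strain difference these shares, in the same order, were 16.5%, 5.22%, 9.13% and 21.7%. In Nmd- members fell more often than the other probe sets without a gene, but about as often as these annotated probe sets. Members and annotated probe sets were both chosen for a higher signal in Nmd-, so the share is not particular to the members. Whether it follows from the signal level was not tested. The counts rest on all courses, since 18 calls in Nmd- became 11, 10 and 9 without Nmd- replicate 1, 2 and 3, and 12 in Nmd+ became 4 and 6 without Nmd+ replicate 2 and 3. With the replicate number as a block 11 members fell and 3 rose in Nmd-. Without the Nmd- arrays of 6 and 10 min, an alternative chosen after seeing the data, 17 fell and 6 rose.

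The steepest decline was that of 5515_at in Nmd-, with slopes of -2.12, -0.82 and -1.62 in the 3 courses (mean -1.52, SE 0.25, adjusted p = 0.0055). It fell in Nmd+ as well, by -1.07, -0.70 and -1.14 (mean -0.97, adjusted p = 0.018), a call lost without Nmd+ replicate 1 (-0.92) or replicate 3 (-0.89). The 2 declines took different courses. The Nmd+ mean was 6.30 at 0 min, 4.72 at 12 min and 4.65 at 60 min, and the Nmd- mean was 8.99, 8.81 and 6.65. On the Nmd- arrays of 6 and 10 min, which stood apart on the whole array, 5515_at was also lower than at 4, 8 and 12 min in every course measured. The other member that fell in both strains was 8044_at, by -1.29, -1.13 and -1.24 in Nmd- and -1.10, -1.19 and -0.94 in Nmd+ (means -1.22 and -1.08, adjusted p = 0.0032 and 0.0018). Its courses were closely alike within each strain.

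The other 10 falling members fell in Nmd- without a call in Nmd+, although the difference between the strains was not called for any of them. Over 2 to 60 min 19 members had an Nmd+ mean at or under the 3.81 that the UPF1 probe set still gave in Nmd-. Among them were 5929_at (2.99), 4639_f_at (2.40) and 9299_at (3.68), so whether a fall could show in Nmd+ is not known. The Nmd- mean of 4639_f_at (3.54) was under that value as well. Slopes of 5854_at were -1.57, -0.79 and -1.37 in Nmd- (mean -1.24, adjusted p = 0.0059) and -0.22, -0.37 and 0.16 in Nmd+. Those of 4639_f_at were -1.65, -0.22 and -1.97 in Nmd- (mean -1.28, adjusted p = 0.021), and the call was lost without Nmd- replicate 1 (-1.10) or replicate 3 (-0.94). Also called falling in Nmd- were 10437_at (mean -1.02) and 4158_at, read as YIL059C (-1.02). The call of 9299_at, whose mean slope was -0.61, was lost with the replicate number as a block (adjusted p = 0.074). Of the 12, 11 were among the 41 non-annotated members and none was among the 6 with an LTR name. These 6 are too few for a difference between the kinds to be read from this.

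In both strains 5 members rose, 3214_at, 3545_i_at, 5898_at, 10832_s_at and 3343_i_at. With the replicate number as a block only 3545_i_at and 5898_at of them did, since the calls of 3214_at, 10832_s_at and 3343_i_at in Nmd- were lost (adjusted p = 0.069, 0.070 and 0.078). The steepest was 3545_i_at, with slopes of 3.00, 2.09 and 2.54 in Nmd- and 1.15, 1.49 and 2.45 in Nmd+ (means 2.54 and 1.70, adjusted p = 0.0018 and 0.0024). Its mean was 2.81 at 0 min and 6.01 at 60 min in Nmd-, and 2.14 and 3.39 in Nmd+. Both means of 0 min and the Nmd+ mean of 60 min lay under 3.81, the highest signal left for the deleted UPF1. The median of that signal over the Nmd- arrays was 2.47. The slopes of 5898_at were 1.27, 1.12 and 0.56 in Nmd- and 1.15, 1.23 and 1.66 in Nmd+ (means 0.98 and 1.35, adjusted p = 0.013 and 0.0018), and the call in Nmd- was lost without Nmd- replicate 1 (0.84) or replicate 2 (0.91). The slopes of 3214_at were 0.64, 1.5 and 3.11 in Nmd- and 2.41, 3.75 and 0.98 in Nmd+ (means 1.75 and 2.38, adjusted p = 0.0497 and 0.011). Its courses differed by more than the strains did, and its call in Nmd- was lost without any 1 Nmd- course (1.07 to 2.30) or without Nmd+ replicate 1 (1.75), and that in Nmd+ without Nmd+ replicate 2 (1.69). The LTR probe sets had mean slopes between -0.60 (3683_f_at) and 0.36 (3617_f_at) in Nmd- and between 0.17 and 0.61 in Nmd+, and none was called. The lowest slopes in Nmd+ after those of 8044_at and 5515_at were those of 5537_at, with 0.74, -1.41 and -0.79, which did not share a direction.

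**Figure D3:**
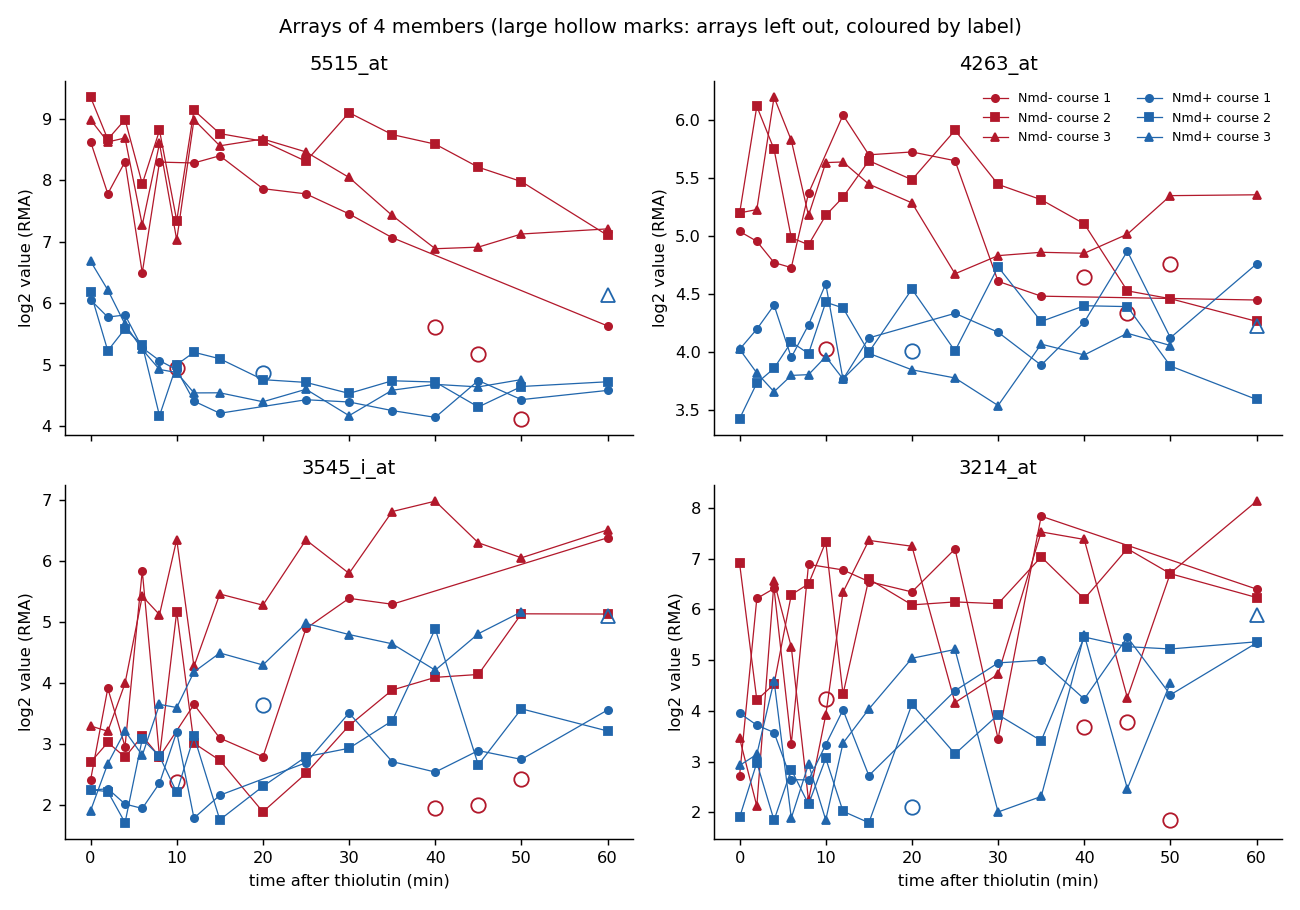
Log2 values of 5515_at, 4263_at, 3545_i_at and 3214_at on every array against time, 1 line per course (red, Nmd-; blue, Nmd+), with the left-out arrays as hollow marks in the colour of their label. The Nmd- courses of 5515_at dip at 6 and 10 min and then fall to 5.63 to 7.21 at 60 min, those of 3545_i_at rise in both strains, and those of 3214_at swing between arrays of the same course.

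The slope was lower in Nmd- than in Nmd+ for 66 of the 75 members, as for 53.8% of all probe sets, and the median difference was -0.51 against -0.03. It was -0.40 for the 230 annotated probe sets of the same strain difference, of which 194 had the lower slope in Nmd-. By limma the difference passed the adjusted threshold for 0 members, and 0% of all probe sets did so. At an unadjusted p under 0.05 the slope was lower in Nmd- for 12 members and higher for none, where 3.21% of all probe sets were lower and 2.76% higher. In 25 members every Nmd- slope lay below every Nmd+ slope, as in 5.91% of all probe sets, and in 7 every Nmd- slope was negative and every Nmd+ slope positive, as in 0.906%. The members' shares for these 3 counts were 16%, 33.3% and 9.33%. For the 230 annotated probe sets of the same strain difference they were 18.3%, 24.3% and 3.91%, so lower slopes in Nmd- are not particular to the members. Without the Nmd- arrays of 6 and 10 min the lower slope was that of Nmd- in 68 members, 20 of them at an unadjusted p under 0.05.

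The most negative differences in slope were those of 4651_at (-1.18, SE 0.36, adjusted p = 0.78), 8071_f_at (-1.14, SE 0.34, adjusted p = 0.78) and 4263_at (-1.11, SE 0.27, adjusted p = 0.68). The Nmd- slopes of 4263_at were -0.77, -1.20 and -0.66 and its Nmd+ slopes 0.38, -0.02 and 0.35, so that the strains were apart. For 4651_at they were 0.39, -1.0 and -0.28 against 1.06, 0.75 and 0.83. The most positive were those of 3545_i_at (0.84, SE 0.39), 11402_at (0.82, SE 0.38) and 8120_at (0.37, SE 0.39), with adjusted p of 0.83, 0.83 and 0.96. For 8120_at the direction was not stable, since the difference was -0.09 without the Nmd- arrays of 6 and 10 min.

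**Figure D4:**
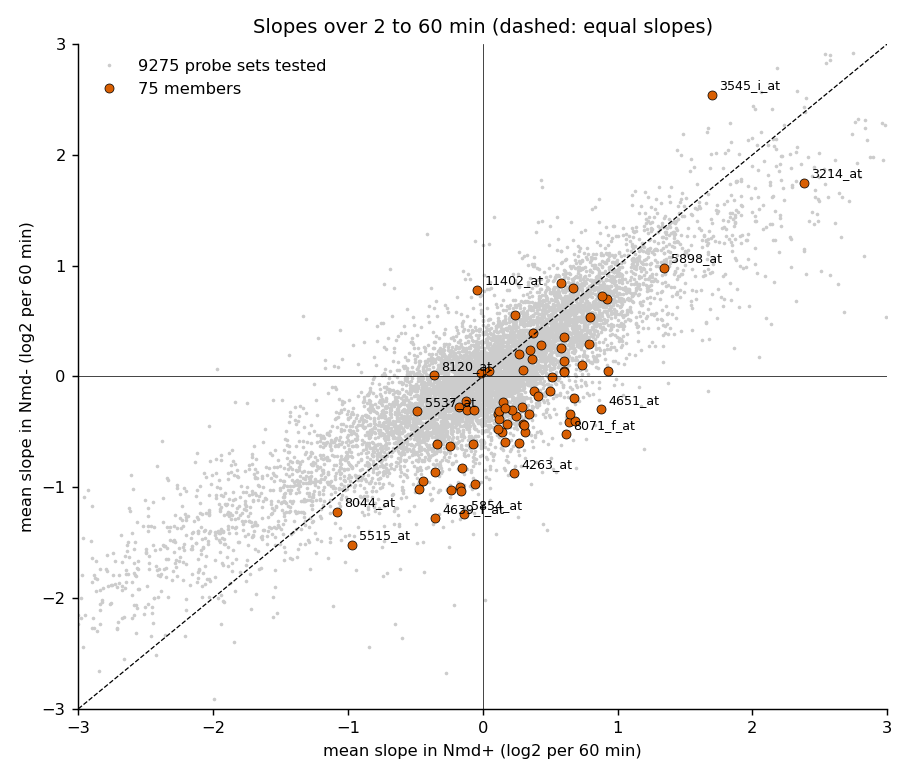
Mean slope over 2 to 60 min in Nmd+ (horizontal) and in Nmd- (vertical), both in log2 per 60 min, for the 75 members (orange) and all 9275 probe sets (grey, those within 3 of zero shown). Below the dashed line of equal slopes lie 66 of the members, and 3545_i_at lies farthest above it.

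The members did not move as 1 group from array to array. Over the 84 arrays of 2 to 60 min, as deviations from the strain means, the 2775 pairs of members had a median correlation of 0.08 and a range from -0.71 to 0.94. These points share the array, the time and the course, and the correlations are given as a description. The 7 pairs with consecutive probe set numbers had a median of 0.78. They included 4651_at with 4652_at (0.94), 4652_at with 4653_at (0.91), 3343_i_at with 3344_f_at (0.91), 3263_i_at with 3264_f_at (0.78) and the 2 probe sets of YEL074W (0.60). Among pairs with distant numbers the highest were 9285_at (YMR320W) with 5929_at (0.81) and 5929_at with 5854_at (0.76), and 5515_at correlated with 5929_at at 0.76 and with 7016_at and 5854_at at 0.72. Of these, 5515_at, 5929_at, 5854_at and 7016_at were called falling in Nmd-.

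A few members varied with the Ty elements, and a few against them. The array has 139 annotated probe sets whose names include a reading frame of a full-length Ty element, 108 of them with several names, and over 2 to 60 min their strain difference had a median of 0.14 and a range from -0.45 to 2.78. The limit of 1 that chose the members was passed by 23 of the 139. They are part of the 230 annotated probe sets of the same strain difference, out of 6832 annotated in all. At 0 min 16 of the 139 (11.5%) were called higher, where 4.28% of all probe sets were. Their mean correlated with 3344_f_at at 0.77, 3343_i_at at 0.70, 3214_at at 0.63, 3264_f_at at 0.60 and 3545_i_at at 0.55, and with the LTR members at 0.09 (3683_f_at) to 0.49 (3876_at), where the median over the members was -0.02. At the other end were 7016_at and 8044_at, both at -0.56 and both called higher at 0 min. Only the strain means were removed, so a shared change over time enters these correlations. The 139 Ty probe sets had median slopes of 0.46 in Nmd- and 0.64 in Nmd+. Called rising in both strains were 3214_at, 3343_i_at and 3545_i_at, but not 3344_f_at or 3264_f_at, while 7016_at and 8044_at were called falling in Nmd-. Whether the likeness goes beyond the change over time was not tested. Of the 5 members above 0.5, 0 were called at 0 min, and of the other 70, 53 were. Those 5 are all absent from the supplementary list.

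The most variable of them was 3214_at, whose lowest, median and highest values from 2 to 60 min were 2.12, 6.34 and 8.13 in Nmd- and 1.80, 3.57 and 5.50 in Nmd+. At 0 min its values were 2.72, 6.91 and 3.46 against 3.96, 1.90 and 2.93 (change 1.44, SE 1.02, adjusted p = 0.50), with 1 Nmd- array above all others. Among the 50 probe sets most like it by the same correlation, 14 were Ty reading frames, 31 had no gene in the annotation and 5 were others. The most alike were 3286_f_at (0.88), 3203_f_at (0.87) and 3212_f_at (0.86), which have no gene.

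**Figure D5:**
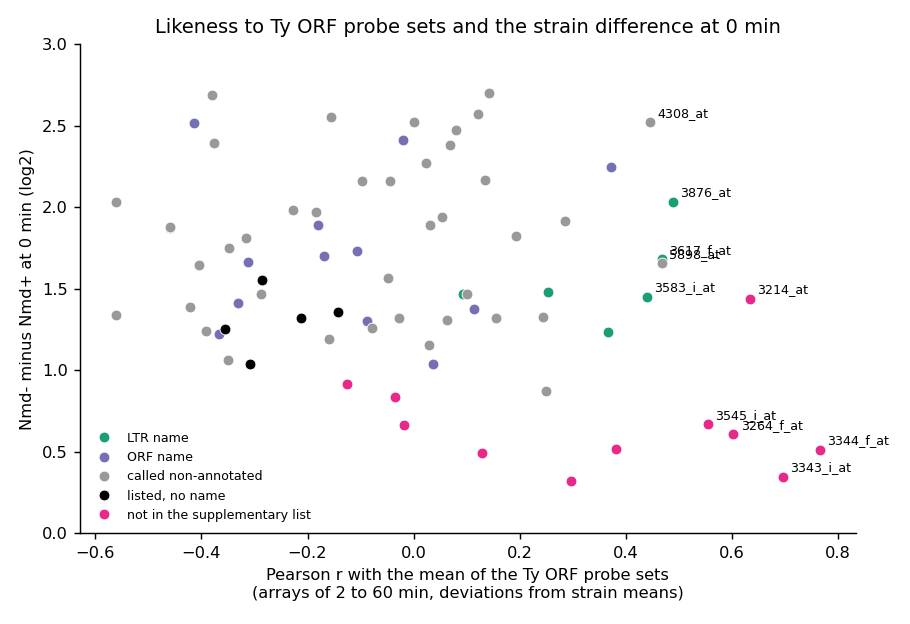
Strain difference at 0 min (log2, vertical) against the correlation with the mean of 139 Ty reading frame probe sets over 84 arrays (horizontal) for the 75 members, coloured by the kind of name in the study's list. The 5 members above 0.5 are all outside that list, and the 6 LTR members (green) lie between 0.09 and 0.49.

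Of 26 probe sets for 19 genes (UPF1, NMD2, UPF3 and the decapping, exosome, Nrd1 and Ski genes), none was called higher at 0 min and 1, that of UPF1 itself, was called lower, by -4.27, where 4.28% of all probe sets were higher and 0.701% lower. The other 2 past 1.5-fold did not pass the test, and these were MTR4, an RNA helicase that works with the exosome (-0.83, SE 0.25, adjusted p = 0.12), and LRP1, an exosome cofactor (0.70, SE 0.33, adjusted p = 0.31). NMD2, which codes for Upf2, had 7.68, 7.12 and 7.33 in Nmd- and 6.44, 7.31 and 6.75 in Nmd+ (adjusted p = 0.33). Of 19 probe sets for 17 genes that act on Ty transcription or transposition, KSS1, a MAP kinase of the filamentation pathway, was higher, with 5.21, 4.94 and 5.15 against 3.59, 4.14 and 4.16 (1.14, SE 0.22, adjusted p = 0.026). One of 3 probe sets for FUS3, the mating MAP kinase, was lower (2458_g_at, -1.55, adjusted p = 0.020), while the other 2 changed by -0.50 and -0.51 and did not pass. TEC1 and STE12, which activate Ty1 transcription, changed by 0.20 and -0.14 with adjusted p of 0.77 and 0.87.

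The values of the members on the 6 arrays left out are given as a description. The strain means of the same times were among the values that chose the members, so the rule favoured nearness to 1 strain. The counts have no share over all probe sets beside them. On the 4 arrays labelled Nmd- course 1 at 10, 40, 45 and 50 min, UPF1 was at 5.89 to 6.20 and KanMX4 at 4.99 to 5.38, and 63, 67, 64 and 69 of the 75 members lay nearer to the Nmd+ mean of the same time than to the mean of the other Nmd- arrays. On the array labelled Nmd+ course 1 at 20 min KanMX4 was at 8.28, and 7 members lay nearer to Nmd-. On the array labelled Nmd+ course 3 at 60 min UPF1 was at 5.43 and KanMX4 at 11.28, and 37 of 75 members lay nearer to Nmd-. With all arrays taken as labelled, 57 of the 75 would have been chosen.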

How the data were processed

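Total RNA of the 96 samples, from 3 courses per strain, was copied from oligo(dT) and hybridised to YG-S98 arrays, 1 per sample, with strain, time and course taken from the titles. The authors computed the deposited values by robust multi-chip average, and they were used as log2 values, since their highest, 14.16, is above 11.09, the natural logarithm of a full 16-bit scanner signal. The 60 control probe sets were left out. Probe sets were named by the platform annotation. The members and lists were chosen with earlier results of these data known. Strains at 0 min, and slopes per course, were compared with limma 3.58.1 in R 4.3.3 (Benjamini-Hochberg over 9275 probe sets), tested on simulated data. Named by rule were the 10 largest differences over 2 to 60 min, the 10 largest and 5 smallest changes at 0 min, all LTR members, the 3 lowest and 3 highest slopes per strain and in the difference, and 5 probe sets on each side of the limit, and members outside this rule were named with their values known. The Ty reading frames were listed by hand after the data were seen. Same-numbered courses had slope deviations correlated at 0.11, 0.13 and 0.13, and 0 min deviations at 0.10, -0.30 and 0.06. The main fits, of slopes and of 0 min, were unpaired, and the replicate number entered only as a block in alternative fits. Scan period and chip lot were varied for 0 min only, and scaling, filters and left-out arrays for 0 min and slopes. Nmd- course 1 had 11 arrays in the first scan period and 5 in the last, which the slope fits did not take into account. The number of arrays limits the precision, and p-values measure the spread between these cultures. No sequence was printed, since no genome was used here.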

Additional observations from a re-analysis of the deposited data

Results flagged for a closer look

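Signals above those of the control strain appeared on 2 arrays labelled Nmd+ that entered only the alternatives with all arrays as labelled. KanMX4 was at 8.28 on Nmd+ course 1 at 20 min and at 11.28 on Nmd+ course 3 at 60 min, where the highest of the other 46 Nmd+ arrays was 6.26. The median over the 75 members was 5.85 on Nmd+ course 3 at 60 min, where the other Nmd+ arrays reached at most 5.22 and the Nmd- arrays were no lower than 6.07.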

How the results depend on the processing

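The number of members was 57 to 77 under the alternatives tried, and 53 members higher at 0 min became 38 (scan period block) to 53, or 39 to 47 without any 1 array. Calls over all probe sets at 0 min fell from 397 to between 170 and 281 without any 1 array and were 247, 253 and 226 with the replicate, scan period and chip lot blocks. Members changing over time in Nmd- numbered 18, 11 with the dimmest probe sets left out (50 members tested), 14 with the replicate block, 23 without the arrays of 6 and 10 min, 25 with 0 min included (8 rose and 17 fell), 25 with all arrays as labelled (1 rose and 24 fell), 16 or 17 under the other settings and 9 to 18 without any 1 course. In Nmd+ they numbered 12, 10 to 16 under these alternatives (12 with the block) and 4 to 15 without any 1 course. The block at 0 min gave 46. The slope difference was called for 0 members under every alternative. Directions turned for 3343_i_at at 0 min with the chip lot as a block (-0.045) and without 1 array (-0.14 to 0.68), for 11402_at (-0.0096 to 0.66), 3732_s_at (-0.032 to 0.77) and 3263_i_at (-0.026 to 0.98) without 1 array, for 3573_f_at, outside the members, with the scan period block (0.036), the running median over probe set number removed (0.0705) and without 1 array (-0.72 to 0.27), and for the slope difference of 8120_at without the Nmd- arrays of 6 and 10 min (-0.0904). None of these had passed the test, and the cause was not tested. Of the single results tried, 594 kept their direction and side of the threshold, 56 lost and 1 gained the call. Arrays have no read depth, and the number of arrays limits what could be called.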
